A study of Rattus norvegicus with 20 samples.

Results

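The genes followed here encode the glycine receptor subunits (Glra1, Glra2, Glra3 and Glrb), the receptor's anchor gephyrin (Gphn), the 2 glycine transporters (Slc6a5 and Slc6a9) and D-amino acid oxidase (Dao), a degrading enzyme. These 8 genes were picked by symbol from the 30443 genes of the deposited expression table, and each symbol had 1 row in it. In the table's own identifiers they are ENSRNOG00000013588 (Glra1), ENSRNOG00000003313 (Glra2), ENSRNOG00000049792 (Glra3), ENSRNOG00000010199 (Glrb), ENSRNOG00000028366 (Gphn), ENSRNOG00000031662 (Slc6a5), ENSRNOG00000019484 (Slc6a9) and ENSRNOG00000054962 (Dao). Expression is given as FPKM, fragments scaled to transcript length and to the number of mapped fragments, which is meant to make levels comparable between genes and between libraries. All 8 genes were among the 15210 that reached 1 FPKM in at least 1 library and were tested. Glra1, Glra3 and Dao reached it only in spinal cord, so a difference between tissues was built into their passing.

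RNA was sequenced from 5 regions of 4 adult female wild-type Long-Evans rats of about 6 to 8 months. All 4 animals, controls included, received a hemicontusion at cervical level 4 and, 2 weeks later, an electrode array in the motor cortex opposite the injury. The 2 stimulated animals were then stimulated for 1 week, 5 hours a day at 10 Hz and 80% of the movement threshold, while the 2 control animals were connected to the stimulator without current. Region 1 was subcortical white matter under the implant and region 2 its counterpart in the other hemisphere. Regions 3, 4 and 5 were whole sections of cervical cord, gray and white matter together, above the lesion, at its centre and below it. The sample labels and the series description place region 5 a level apart (levels 4 to 6 and levels 5 to 7). Neither an uninjured nor an unimplanted animal was sequenced, so every level below is that of injured, implanted rats.

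Glycine is the main fast inhibitory transmitter of the spinal cord and brainstem, where it opens chloride channels on motor neurons and interneurons. The receptor is assembled from alpha subunits, which carry most of the glycine binding site, and the beta subunit, through which it is held at synapses by the scaffold protein gephyrin. Glycinergic neurons take glycine back into their terminals with the transporter encoded by Slc6a5 and load it into vesicles with the carrier they share with GABA neurons (Slc32a1), while astrocytes clear it with the transporter encoded by Slc6a9.

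The libraries differed in scale, with median log2 FPKM of 2.23 to 2.69 among the genes tested and summed FPKM of 191481 to 290718. Small differences between regions can therefore depend on the scaling, and other scalings are given below. FPKM values do not keep read numbers, so the depth behind a single gene is unknown. The labels give the libraries of a group to separate animals, and the p-values of stimulation within a region measure the spread among them. Those between regions measure the spread of libraries within regions, and the regions share animals. The table lists no value under 0.1 FPKM, and 39.7% of its values stand at that floor. The libraries labelled white matter also held cortical neuron transcripts: Slc17a7, the vesicular glutamate carrier of cortical neurons, stood at 225 to 329 FPKM in all 8, and Tbr1, a cortical transcription factor, at 10.7 to 18.7 FPKM. Among markers of spinal inhibitory neurons, the transcription factors Pax2, Lhx1 and Lhx5 were at the floor in all 8 of these libraries. The rest of that list was not absent. Gad1 and Gad2 were higher in every white matter library than in any cord library, and Slc32a1 was lower than in cord but present. The region 2 library of stimulated animal 2 stood apart from the other 3 of that region, with Gfap, the astrocyte filament, at 678 FPKM against 70.1 to 91.4, and Cd68, a phagocyte marker, at 11.8 against 0.514 to 0.695. The tests of the 8 genes between the tissues and between the white matter blocks are therefore also given without it. It also enters the spread shared by all regions, and so the tests between cord regions. Without it 1807 genes were higher and 2103 lower in region 4 than in region 3, against 1031 and 1953 with it. Between regions 5 and 3, 1246 were higher and 370 lower, against 422 and 235. The fit of the 12 cord libraries alone, given below for region 4 against regions 3 and 5, leaves it out.

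Among the alpha subunits, Glra1 was the most abundant in spinal cord, and Glra2 in white matter. Glra1, the alpha subunit of adult synaptic receptors, had 51.3 and 52.8 FPKM in region 3 of control animals 1 and 2 and 45.4 and 47.2 FPKM in stimulated animals 1 and 2. In region 4 its levels were 31.1, 32.8, 36.1 and 36.3 FPKM in the same order, and in region 5 they were 50.0, 45.9, 38.4 and 44.3 FPKM. In white matter it stood at 0.329, 0.213, 0.334 and 0.460 FPKM in region 1 and at 0.1, 0.117, 0.185 and 0.114 FPKM in region 2. The highest white matter library thus lay far under the lowest cord library, and region 2 was close to the floor of the table.

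The other alpha subunits were much weaker in cord. Glra3, a subunit known from the superficial dorsal horn and from pain processing, had 4.06, 4.21, 4.24 and 4.49 FPKM above the lesion, 1.55, 2.10, 2.66 and 2.87 at its centre and 2.02, 2.10, 2.22 and 2.39 below it, in the same order of animals. In white matter it ranged from 0.1 to 0.212 FPKM over 8 libraries. Glra2, the subunit that prevails before birth, was low everywhere and differed little between tissues. Its range was 1.13 to 2.72 FPKM in the 12 cord libraries and 1.08 to 2.05 FPKM in the 8 white matter libraries. Glra4 was no member of the list, and its level was at most 0.728 FPKM in any library.

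As a share of the summed FPKM of Glra1, Glra2, Glra3 and Glra4, Glra1 took 87.4% ± 1.14 above the lesion, 89.7% ± 0.784 at its centre and 91.0% ± 0.700 below it (SD, n = 4 libraries each). In white matter Glra2 held the largest share, 70.3% ± 9.93 in region 1 and 78.7% ± 2.50 in region 2, where the summed alpha subunits came to 2.08 ± 0.316 and 1.77 ± 0.221 FPKM, against 56.3 ± 3.49 FPKM above the lesion. Values at the floor enter these white matter sums, so the shares there are approximate.

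Glrb and Gphn did not follow Glra1 and Glra3. Glrb, the beta subunit that binds gephyrin, had 51.3, 46.8, 44.2 and 29.5 FPKM in region 1 and 55.4, 43.5, 47.7 and 41.5 FPKM in region 2 (control animals 1 and 2, then stimulated animals 1 and 2). In cord it had 52.1, 65.5, 55.1 and 51.0 FPKM above the lesion, 39.6, 37.0, 46.0 and 37.9 at its centre and 58.9, 52.1, 52.6 and 53.6 below it. The tissues overlapped over most of their range. Gphn, which also serves GABA receptors and the synthesis of the molybdenum cofactor, also had a narrow range, with 13.7 to 17.2 FPKM in white matter and 16.6 to 21.8 FPKM in cord. The ratio of summed alpha subunits to Glrb was 1.01 ± 0.0875 above the lesion, 0.952 ± 0.0964 at its centre and 0.903 ± 0.0647 below it, and 0.050 ± 0.0114 and 0.0380 ± 0.00553 in regions 1 and 2 (SD, n = 4).

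The transporters differed in how far they were confined to cord. Slc6a5, the transporter of glycinergic terminals, had 39.3, 40.0, 35.2 and 33.6 FPKM above the lesion, 26.1, 27.4, 31.3 and 27.2 at its centre and 37.3, 36.3, 29.0 and 30.9 below it. In region 1 it stood at 4.10, 1.92, 2.08 and 0.576 FPKM and in region 2 at 0.169, 0.187, 0.252 and 0.221 FPKM. Every cord library thus lay above every white matter library, and the 4 animals of region 1 were more scattered than those of any other region. Slc6a9, the transporter of astrocytes, was the most abundant of the 8 genes in cord, at 68.3 to 97.5 FPKM, and was still present in white matter at 6.65 to 17.3 FPKM. Slc6a9 exceeded Slc6a5 by a ratio of 2.23 ± 0.214 above the lesion, 2.68 ± 0.178 at its centre and 2.57 ± 0.299 below it, by 8.59 ± 5.84 under the implant and by 42.9 ± 10.3 on the other side (SD, n = 4).

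Dao, a peroxisomal enzyme that degrades D-serine and other D-amino acids and also oxidises glycine, had 17.5, 20.7, 21.5 and 18.7 FPKM above the lesion, 16.5, 14.2, 18.7 and 15.9 at its centre and 20.3, 18.5, 17.3 and 18.9 below it. In region 1 it stood at 0.1, 0.156, 0.141 and 0.219 FPKM. In region 2 all 4 libraries were at the floor, so no level was measured there. Along the cord, the means of Glra1, Glra2, Glrb, Gphn, Slc6a5 and Dao were highest above the lesion, next below it and lowest at its centre. The libraries above and below the lesion overlapped for all 6 of these genes, and those below it and at its centre overlapped for Slc6a5 and Dao.

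**Figure D1:**
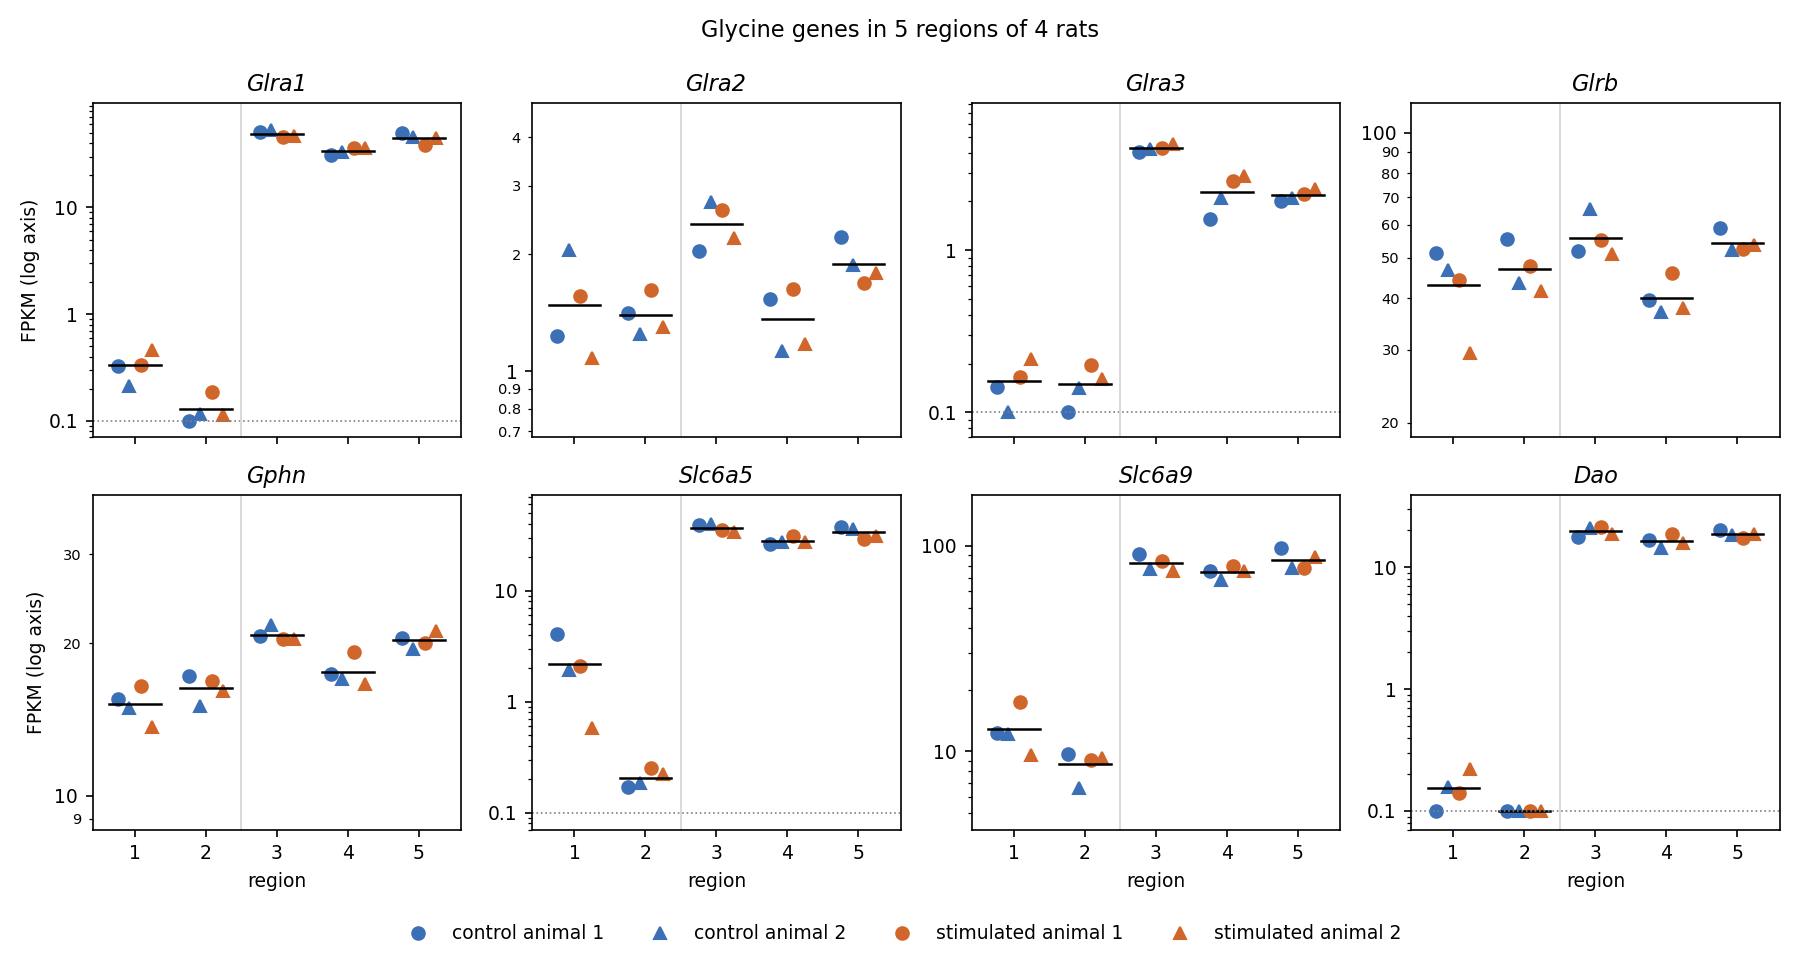
FPKM of each of the 8 genes (vertical log axis) in regions 1 to 5 (horizontal axis), with 1 symbol per library for control animals 1 and 2 and stimulated animals 1 and 2, the mean of the 4 libraries as a bar and the floor of 0.1 as a dotted line. Glra1, Glra3, Slc6a5, Slc6a9 and Dao are separated between white matter (regions 1 and 2) and cord (regions 3 to 5), while Glra2, Glrb and Gphn overlap.

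**Figure D2:**
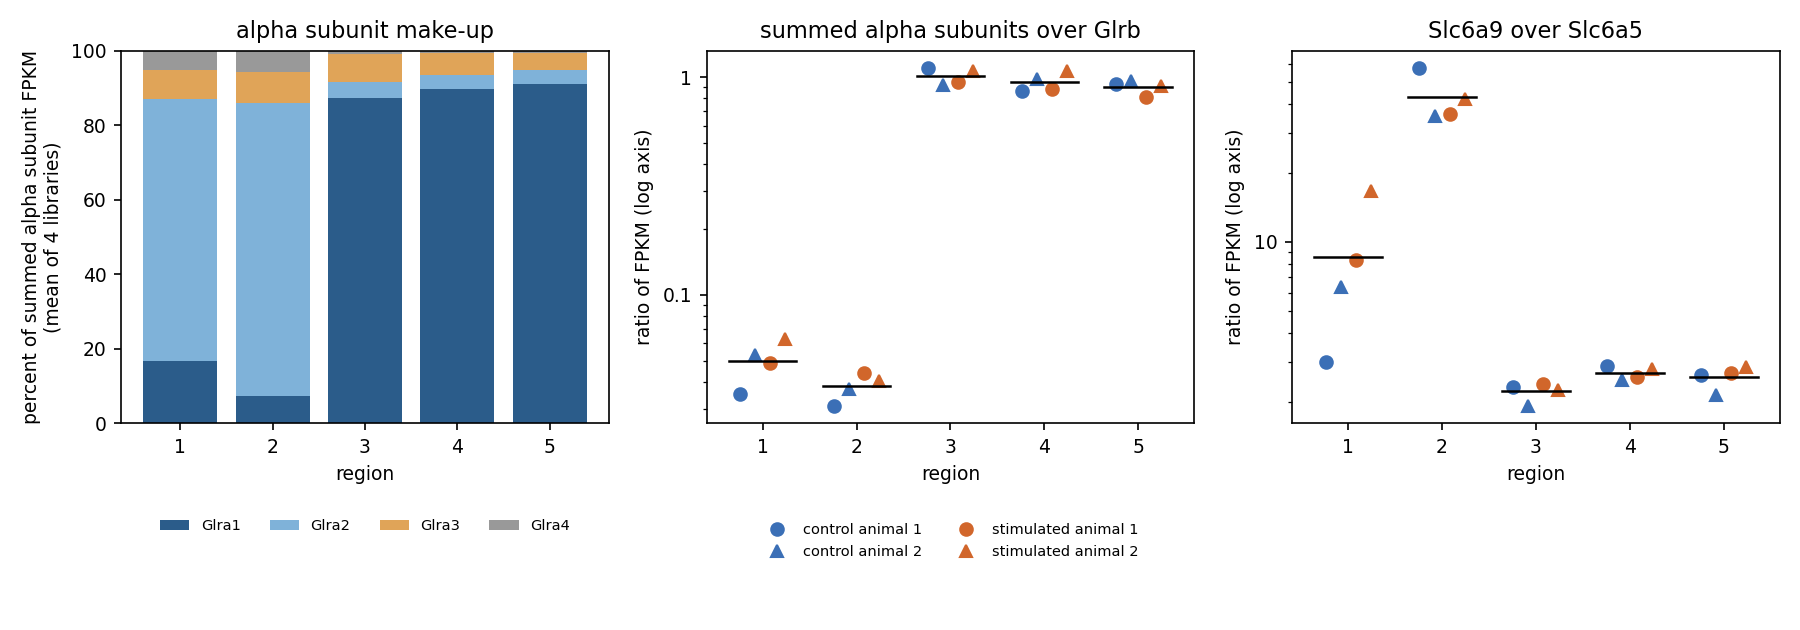
Left, the mean percent of the summed alpha subunit FPKM that each alpha subunit took in each region; middle and right, the ratio of summed alpha subunits to Glrb and of Slc6a9 to Slc6a5 in each library (log axes, bars are means of 4 libraries). Glra1 takes 87.4 to 91.0% in cord, and the ratio to Glrb is near 1 in cord and at most 0.0627 in white matter.

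Since Slc6a5 and Dao were far lower in white matter than in cord while Glrb and Gphn overlapped between them, the 250 bases upstream of the annotated start are shown for these 4 genes, from the RefSeq promoters of the rat build GRCr8, a later build than the one the reads were aligned to. They lie at chr1:108781303-108781552 (plus strand) for Slc6a5, chr12:48273301-48273550 (minus strand) for Dao, chr2:168505615-168505864 (minus strand) for Glrb and chr6:102687403-102687652 (plus strand) for Gphn. Each is written 5′ to 3′ on the strand of its gene, and capitals mark 4 motifs searched on either strand. The first was TAATTA, a core found in many homeodomain binding sites, and the second was GGGCGG, the core of the GC box, with its reverse complement. The third was TATAAA, the TATA box, and the fourth CCAAT, the CCAAT box, neither of which occurs in these 4 windows. No match overlaps another.
Slc6a5: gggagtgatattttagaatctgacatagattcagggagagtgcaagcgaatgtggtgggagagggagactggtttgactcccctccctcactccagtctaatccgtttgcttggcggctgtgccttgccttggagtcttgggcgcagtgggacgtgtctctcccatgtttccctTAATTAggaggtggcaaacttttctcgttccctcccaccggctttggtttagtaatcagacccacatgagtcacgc
Dao: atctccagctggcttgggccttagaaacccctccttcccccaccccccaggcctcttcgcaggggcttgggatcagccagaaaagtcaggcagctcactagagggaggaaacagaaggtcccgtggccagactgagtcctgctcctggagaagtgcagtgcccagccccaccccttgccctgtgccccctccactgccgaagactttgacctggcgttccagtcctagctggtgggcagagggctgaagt
Glrb: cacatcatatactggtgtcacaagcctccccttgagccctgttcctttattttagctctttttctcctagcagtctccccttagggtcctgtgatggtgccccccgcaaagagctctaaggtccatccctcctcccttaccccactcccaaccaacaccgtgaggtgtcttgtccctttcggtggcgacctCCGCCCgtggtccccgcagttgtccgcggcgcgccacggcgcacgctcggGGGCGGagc
Gphn: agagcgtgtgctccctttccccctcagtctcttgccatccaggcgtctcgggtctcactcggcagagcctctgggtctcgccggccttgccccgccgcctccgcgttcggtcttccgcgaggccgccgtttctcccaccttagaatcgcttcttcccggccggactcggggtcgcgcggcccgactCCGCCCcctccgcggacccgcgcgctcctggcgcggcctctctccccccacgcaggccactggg
The letters TAATTA occur in the Slc6a5 window from 76 to 71 bases before the start and in 4.94% of the 27457 rat promoters of the same length. GGGCGG or its reverse complement occurs 2 times in the Glrb window and 1 time in the Gphn window, not in those of Slc6a5 and Dao, and in 32.4% of all promoters. It does not follow the tissue pattern, since it also occurs 2 times in the window of Slc6a9 and 1 time in that of Glra3, which are not printed. The Gphn window had 72.4% G and C and a ratio of observed to expected CpG of 1.04, and the Glrb window 61.2% and 0.726. The Slc6a5 window had 52.4% and 0.468 and the Dao window 62.4% and 0.166, beside medians of 52.0% and 0.406 over all promoters. Entries were matched for 7 of the 8 genes, all but Glra1. These matches describe letters in a window and were not tested against expression.

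Whether the tissues differed beyond the spread of libraries within regions was tested in a limma model of all 20 libraries on log2 FPKM. Benjamini-Hochberg adjusted p was taken over all 15210 genes, with 0.05 as the threshold. The 20 libraries entered as independent although they came from 4 animals. Deviations of regions 1 and 2 of the same animal correlated at 0.59 on average, so these p-values do not measure the spread between animals. For Glra1, Glra3 and Dao, which passed the filter only through cord, no test is given. Of the other 5 genes, 4 were lower in white matter (Slc6a5, Slc6a9, Gphn and Glra2), beside 47.1% of all genes tested. Because fewer cells of a type and less RNA per cell cannot be told apart in bulk tissue, these are differences of the sampled tissue. Slc6a5 was lower in white matter by 5.76 on the log2 scale (SE 0.228, adjusted p = 4.27e-14, limma), a ratio of means of 27.6. Slc6a9 was lower by 2.95 (SE 0.0938, adjusted p = 1.61e-15, limma), a ratio of 7.49. Gphn and Glra2 were lower by much less, 0.31 (SE 0.0436, adjusted p = 3.26e-06, limma) and 0.36 (SE 0.116, adjusted p = 0.0086, limma). Glrb differed by -0.16 (95% interval -0.34 to 0.03, adjusted p = 0.125, limma), white matter minus cord.

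The tissue pattern of Glra1 and Dao was also known when the list was drawn up, so it is described without a test, as is that of Glra3. Glra1 was 184-fold lower in white matter by the ratio of means, a log2 difference of -7.71, and among the 15210 genes only 1 had a more negative difference. Dao was at least 143-fold lower, with 5 of its 8 white matter libraries at the floor, a log2 difference of -7.22 with 2 genes below it. Glra3 had a ratio of 19.1 and a log2 difference of -4.22. The ranges of the tissues did not overlap for these 3 genes nor for Slc6a5 and Slc6a9, and 16.8% of all genes were lower in white matter without overlap. Since the first 3 passed the filter through cord alone, nothing is read from that count. Without the library that stood apart, the same 4 genes passed, and over all genes 3760 were higher and 7572 lower in white matter. The Glra2 difference rested on control animal 1 and on the scaling: it was -0.31 (adjusted p = 0.0699, limma) without that animal and -0.14 (adjusted p = 0.352, limma) after quantile normalization, a scaling that forces equal distributions on the libraries. Over all genes 3808 were higher and 7169 lower in white matter, and 5054 and 6018 after quantile normalization.

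Cell type markers moved with this contrast. All 6 oligodendrocyte markers, 4 of 6 astrocyte markers, 2 of 6 general neuronal markers, all 3 spinal motor neuron markers tested and 3 of 5 spinal inhibitory neuron markers were lower in white matter. The other 2 astrocyte and 4 general neuronal markers were higher, and the GABA synthesis genes Gad1 and Gad2 and all 4 cortical neuron markers were higher too (limma, adjusted p under the threshold). Summed over each list, oligodendrocyte markers ran from 708 to 2943 FPKM in regions 1 and 2 and from 7403 to 10779 FPKM in regions 3 to 5, and spinal motor neuron markers from 0.726 to 1.70 and from 16.8 to 39.7 FPKM. Slc32a1, the vesicle carrier of both inhibitory transmitters, was at 8.77 to 14.1 FPKM in white matter, so inhibitory neuron transcripts were present there with little of the glycinergic set. The ratio of Slc6a5 to Slc32a1 was 1.51 ± 0.121, 1.79 ± 0.0978 and 1.64 ± 0.122 in the 3 cord regions and 0.166 ± 0.0928 and 0.0177 ± 0.00268 in regions 1 and 2 (SD, n = 4). The part of cell composition in the difference of the 8 genes was not tested.

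At the lesion centre the receptor genes were lower than above it. Between regions 4 and 3, 4 of the 8 genes were lower at the lesion by the limma model, namely Glra2, Glra3, Glrb and Gphn, and 12.8% of all genes were. Glra3 was lower by 0.93 (SE 0.234, adjusted p = 0.0105, limma) and Glra2 by 0.81 (SE 0.179, adjusted p = 0.00444, limma), ratios of the region 3 to the region 4 mean of 1.85 and 1.75. Glrb was lower by 0.48 (SE 0.138, adjusted p = 0.0223, limma) and Gphn by 0.25 (SE 0.0676, adjusted p = 0.0176, limma). Glra1 differed by -0.53 (95% interval -0.93 to -0.13, adjusted p = 0.055, limma), just short of the threshold.

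The transporters and Dao did not pass that test. Region 4 minus region 3 was -0.40 for Slc6a5 (95% interval -1.14 to 0.34), -0.13 for Slc6a9 (-0.44 to 0.17) and -0.27 for Dao (-0.60 to 0.07). The wide interval of Slc6a5 carries the scatter of region 1, since all regions share an estimate of the spread. In a fit of the 12 cord libraries alone, added after that was seen, Slc6a5 was lower at the same difference (adjusted p = 0.0077, limma), as were Glra1 (adjusted p = 0.00113, limma) and Dao (adjusted p = 0.0456, limma), which made 7 of the 8 genes. Slc6a9 was the exception. Over all genes tested, that fit called 2152 higher and 2635 lower at the lesion, against 1031 and 1953 in the model of 20 libraries.

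All 8 genes were lower at the lesion than above it in all 4 animals, a pattern that 26.7% of the genes tested showed. The 4 libraries of region 4 lay entirely under those of region 3 for 6 of the 8, all but Slc6a9 and Dao, and for 15.7% of all genes. The median difference of the 8 genes was -0.44 and that of all genes -0.02. The number that passed depended on single animals: it was 0 without control animal 2, 1 without control animal 1, 3 without stimulated animal 1 and 4 without stimulated animal 2. With no filter on low values it was 3, without Glrb (adjusted p = 0.0538, limma). Over all genes 1031 (6.78%) were higher and 1953 lower at the lesion, and 2115 and 2487 after upper-quartile scaling.

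Neuronal markers were lower at the lesion as well, while those of astrocytes and oligodendrocytes did not pass the test. Of the 6 general neuronal markers tested, 4 were lower at the lesion, with a list median of -0.52 on the log2 scale, and all 5 markers of spinal inhibitory neurons were lower, with a median of -0.81. Summed over the list, the inhibitory markers ran from 63.6 to 77.0 FPKM in region 3 and from 35.8 to 45.3 FPKM in region 4. None of the 3 motor neuron, 6 astrocyte or 6 oligodendrocyte markers passed the limma test at 0.05, with 0 of each at an unadjusted p under 0.05 as well. The astrocyte markers Gfap and Aqp4 and the motor neuron marker Slc5a7 were nonetheless higher at the lesion without overlap, as were 1983 of the 15210 genes. The other markers of these lists overlapped. The spread shared by all regions holds the region 2 library with high Gfap, so this test could miss a rise of Gfap. All 4 Schwann cell markers were higher at the lesion, and 3 of 6 markers of microglia and macrophages were, Cd68 by 3.58. The part of these shifts in the lower levels of the 8 genes was not tested.

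**Figure D3:**
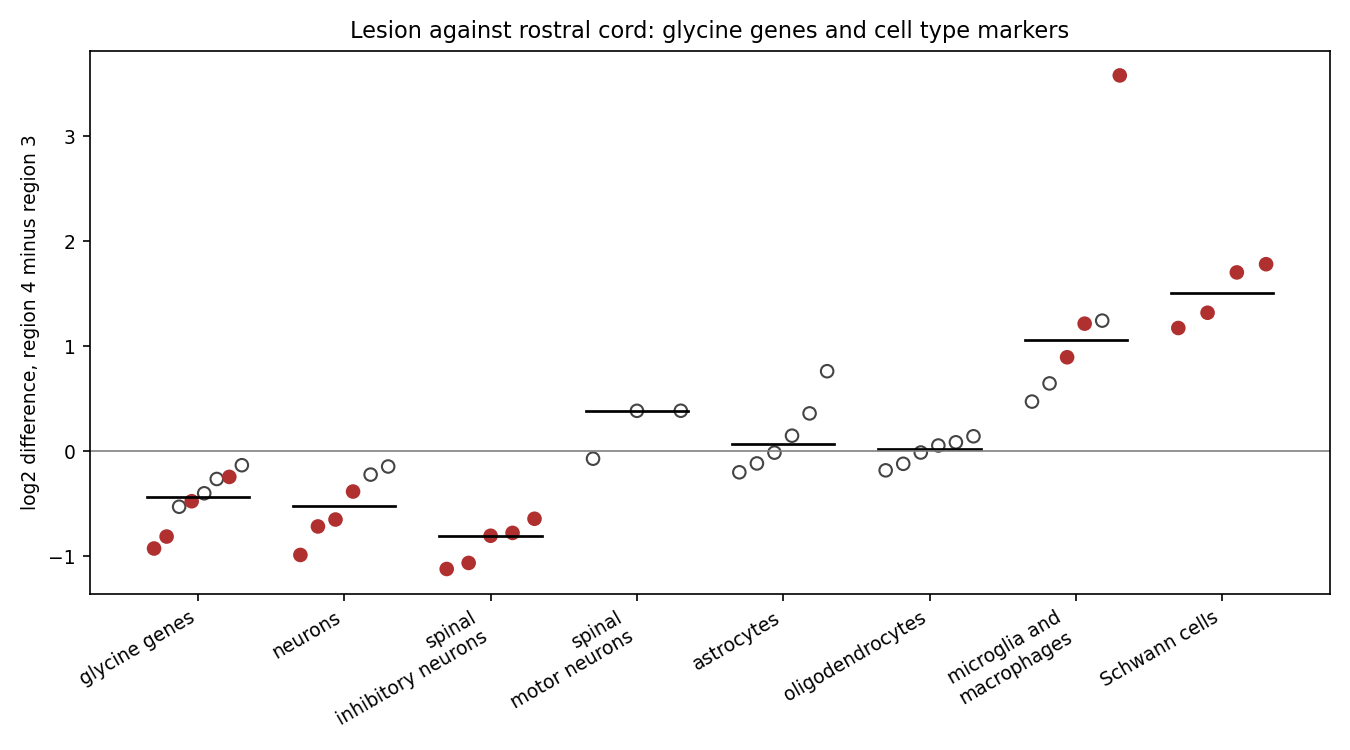
Log2 difference, region 4 minus region 3 (vertical axis), of the 8 glycine genes and of each marker in 7 cell type lists (horizontal axis); filled points passed the limma test at an adjusted p of 0.05, open points did not, and bars are list medians. The median of the glycine genes (-0.44) lies by that of general neuronal markers (-0.52), while the medians of astrocyte and oligodendrocyte markers are near 0. Among the astrocyte markers, Gfap and Aqp4 were higher in region 4 without overlap, although their points are open.

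Below the lesion the means lay between those of the other cord regions for 6 of the 8 genes, all but Glra3 and Slc6a9. Region 5 minus region 4 was 0.48 for Glra2 (SE 0.179, adjusted p = 0.0903), 0.44 for Glrb (SE 0.138, adjusted p = 0.0545), 0.39 for Glra1 (SE 0.189, adjusted p = 0.18) and 0.21 for Gphn (SE 0.0676, adjusted p = 0.057, all limma). With 0 of 8 genes past the threshold, 3 had an unadjusted p under 0.05, beside 29.0% of all genes, and 7.06% of all genes were higher by the adjusted test. The region 5 libraries lay entirely above those of region 4 for Glra1, Glra2, Glrb and Gphn, and for 16.3% of all genes. With the animal as a block, 2 of the 8 passed, Glrb (adjusted p = 0.0338, limma) and Gphn (adjusted p = 0.0441, limma), and in the cord libraries alone Glra1, Glrb and Gphn did (adjusted p = 0.0205, 0.0169 and 0.0273, limma). Without stimulated animal 2 only Glrb did (adjusted p = 0.0456, limma). Over all genes 1074 were higher and 142 lower below the lesion, and 299 and 329 after upper-quartile scaling. These numbers were 1776 and 190 with the animal as a block and 2167 and 295 in the cord libraries alone. Without stimulated animal 2 they were 660 and 437. Over the alternatives reported, region 5 minus region 4 ran from 0.20 to 0.49 for Glra1 and from 0.29 to 0.62 for Glra2. It ran from 0.24 to 0.52 for Glrb and from 0.045 to 0.26 for Gphn.

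Glra3 was the exception among the receptor genes, since its level below the lesion was close to that at its centre. The cord regions also differ in cervical level, and no uninjured cord was sequenced. Cervical level and place relative to the lesion therefore cannot be told apart in any comparison of cord regions. Region 5 minus region 4 was -0.04 for Glra3 (95% interval -0.53 to 0.45), and region 5 minus region 3 was -0.96 (SE 0.234, adjusted p = 0.0262, limma), lower in 4 of 4 animals. It was the only 1 of the 8 genes past the threshold between regions 5 and 3, and 1.55% of all genes were lower there. In all 4 animals 1300 of the 15210 genes were lower in region 5, Glra1 and Slc6a5 among them. The other 7 genes differed by -0.33 to 0.05 between these regions, all with 95% intervals that include 0. The Glra3 difference was as large without each animal, -0.95 to -0.98, but its adjusted p was 0.104 without control animal 1, 0.126 without control animal 2 and 0.145 without stimulated animal 1. It was 0.055 with no filter on low values and 0.0696 after quantile normalization (limma). Over all genes 422 were higher and 235 lower in region 5 than in region 3, and 419 and 751 after upper-quartile scaling. Among markers, 2 of 5 of spinal inhibitory neurons and 1 of 6 general neuronal markers were also lower in region 5 than in region 3, while 2 of 3 of motor neurons and 4 of 4 of Schwann cells were higher (limma), and their part was not tested.

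**Figure D4:**
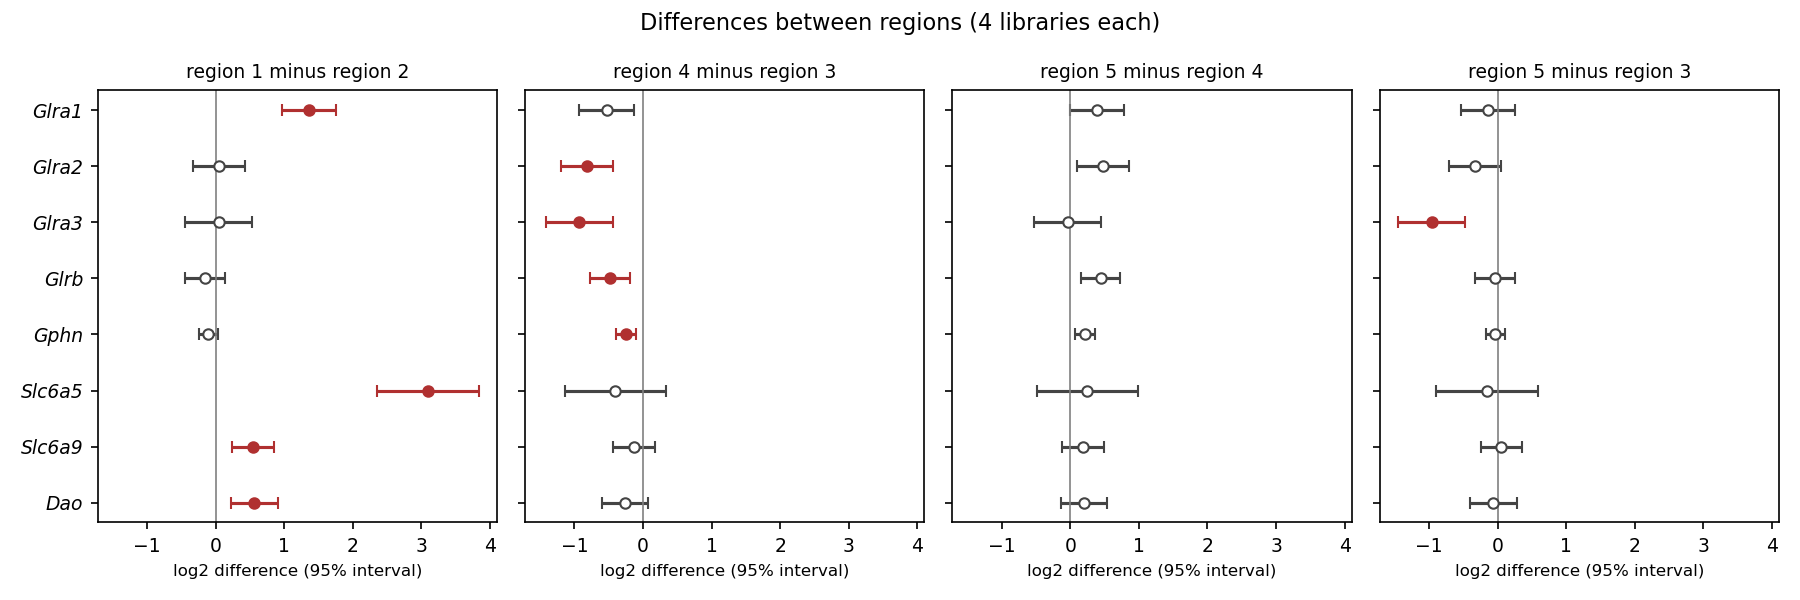
Log2 difference of each of the 8 genes for 4 pairs of regions, with 95% intervals from the limma model of 20 libraries; filled points passed at an adjusted p of 0.05. Slc6a5 and Glra1 stand out between the white matter blocks (Dao is at the floor in region 2), the 4 receptor and anchor genes Glra2, Glra3, Glrb and Gphn at the lesion, and only Glra3 between regions 5 and 3.

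Under the implant the glycinergic transporter was higher than on the other side of the brain. Slc6a5, Glra1 and Slc6a9 passed as higher in region 1 than in region 2, beside 6.86% of all genes. Dao passed as well, but it had no measured level in region 2 and could not be lower in region 1, so its call is not read. Slc6a5 was higher by 3.10 (SE 0.354, adjusted p = 0.000194, limma), a ratio of means of 10.5, and only 17 of the 15210 genes had a larger positive difference. Glra1 was higher by 1.36 (SE 0.189, adjusted p = 0.000857, limma), a ratio of 2.59 between levels that are both under 0.5 FPKM. All regions share an estimate of the spread, and on the log2 scale both genes scattered more in white matter than in cord. Slc6a5 alone ran from 0.576 to 4.10 FPKM in region 1. Their SE and p therefore understate the scatter of the white matter libraries. For these 2 genes the regions did not overlap and all 4 animals agreed. Of all genes, 4.40% were higher without overlap, and 3371 of the 15210 were higher in all 4 animals. Slc6a9 was higher by 0.55 (SE 0.145, adjusted p = 0.0281, limma), also in 4 of 4 animals, but its libraries overlapped between the regions. For Dao, region 2 stood at the floor in all 4 libraries and region 1 did in 1, so neither a fold nor a p is given for it.

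The receptor subunits other than Glra1 and gephyrin gave small differences, 0.05 for Glra2 (95% interval -0.32 to 0.43), 0.05 for Glra3 (-0.44 to 0.54), -0.15 for Glrb (-0.44 to 0.14) and -0.11 for Gphn (-0.25 to 0.04). Those of Glra2 and Glra3 turned negative after quantile normalization and after upper-quartile scaling. With Dao in the count, 4 of the 8 genes passed, both with all libraries and without the library that stood apart. Over all genes, leaving that library out raised the numbers from 1043 higher and 267 lower in region 1 to 3043 and 537. Nothing is therefore read from the unchanged count. Only Slc6a5 was past the threshold under each of the 13 alternatives, at 1.27 to 3.67. Glra1 lost its call with log2(FPKM + 1), a scale on which the smallest levels weigh less, where its difference was 0.24 (adjusted p = 0.0801, limma), and after quantile normalization, at 0.72 (adjusted p = 0.128, limma). Slc6a9 lost its call without control animal 1 (adjusted p = 0.123, limma), control animal 2 (0.198) or stimulated animal 1 (0.278) and with no filter on low values (0.0719). Gphn was lower in region 1 after quantile normalization and upper-quartile scaling, by 0.17 under each (adjusted p = 0.0243 and 0.0202, limma). Over all genes 1043 were higher and 267 lower in region 1, and 943 and 841 after quantile normalization.

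None of the 5 spinal inhibitory neuron markers tested differed between the white matter blocks by this test, the smallest adjusted p being 0.265 (limma). Slc32a1 was at 12.2 ± 2.52 FPKM in region 1 and 11.7 ± 1.08 in region 2 (SD, n = 4), and Pax2, Lhx1 and Lhx5 were at the floor in both. Other lists did move: 5 of 6 oligodendrocyte markers, 2 of 6 astrocyte markers, 1 of 6 markers of microglia and macrophages and 2 of 4 Schwann cell markers were higher in region 1, and 1 of 6 general neuronal markers was lower. Their part in the higher Slc6a5 and Glra1 was not tested. Region 1 is the block under the electrode in all 4 animals and also a fixed hemisphere relative to the injury, so these cannot be told apart.

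Stimulation changed none of the 8 genes past the threshold in any region, 0 of 8 in each of regions 1 to 5 (limma in the 4 libraries of a region, Benjamini-Hochberg adjusted p over all genes). Over all genes tested, 0 passed in regions 1 to 4 and 3 in region 5, 0.0197%. These totals were unstable: without stimulated animal 1, 217 genes passed as higher and 11 as lower in region 1 and 533 and 15 in region 2, and with the replicate number as a block 322 and 121 in region 5, none of them among the 8. At an unadjusted p under 0.05 there were 0 of the 8 genes in regions 1, 2 and 4 (5.44%, 1.41% and 2.24% of all genes) and 1 in each of regions 3 and 5 (3.43% and 3.59% of all genes), each time Slc6a5. With 2 animals against 2, an exact permutation test could not give a p under 0.333.

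Slc6a5 was 33.6 and 35.2 FPKM in the stimulated and 39.3 and 40.0 FPKM in the control animals of region 3, a difference of -0.21 (95% interval -0.37 to -0.04, adjusted p = 0.956, limma). In region 5 it was 29.0 and 30.9 FPKM against 36.3 and 37.3 FPKM, a difference of -0.30 (95% interval -0.52 to -0.07, adjusted p = 1, limma). The groups did not overlap in these regions on either side of the lesion, but they did at the lesion, where the difference was 0.12 (95% interval -0.24 to 0.48). In region 1 the spread was widest, with an interval from -3.62 to 0.90 around -1.36. In region 2, where all 4 levels were under 0.3 FPKM, the difference was 0.41 and turned to -0.49 after quantile normalization.

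Glra1 had the same order as Slc6a5 in regions 3 and 5, with the stimulated animals lower and without overlap (-0.17, 95% interval -0.34 to 0.01, and -0.22, -0.53 to 0.10), and the opposite order without overlap at the lesion (0.18, -0.13 to 0.49). Glra3 was higher in both stimulated animals than in both controls in each of the 5 regions, by 0.65 and 0.58 in white matter and 0.08, 0.62 and 0.16 in cord, none of which passed the test. The same 4 animals enter all 5 regions, so these are not 5 separate observations, and in regions 1 and 2 the levels were at most 0.212 FPKM. Counted in either direction, the groups did not overlap for 3, 2, 4, 3 and 4 of the 8 genes in regions 1 to 5, beside 40.6%, 27.0%, 29.9%, 20.2% and 24.6% of all genes.

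Differences of the stimulation effect between regions were tested on differences within each animal, for the 10 pairs of regions. Of the 80 tests of the 8 genes, 0 passed the limma test, the smallest adjusted p being 0.558, and 2 had an unadjusted p under 0.05, Glrb between regions 1 and 4 and Glra1 between regions 3 and 4. Of all genes and pairs, 0.00131% passed and 3.75% had an unadjusted p under 0.05. With 2 animals per group, only large effects could be resolved.

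**Figure D5:**
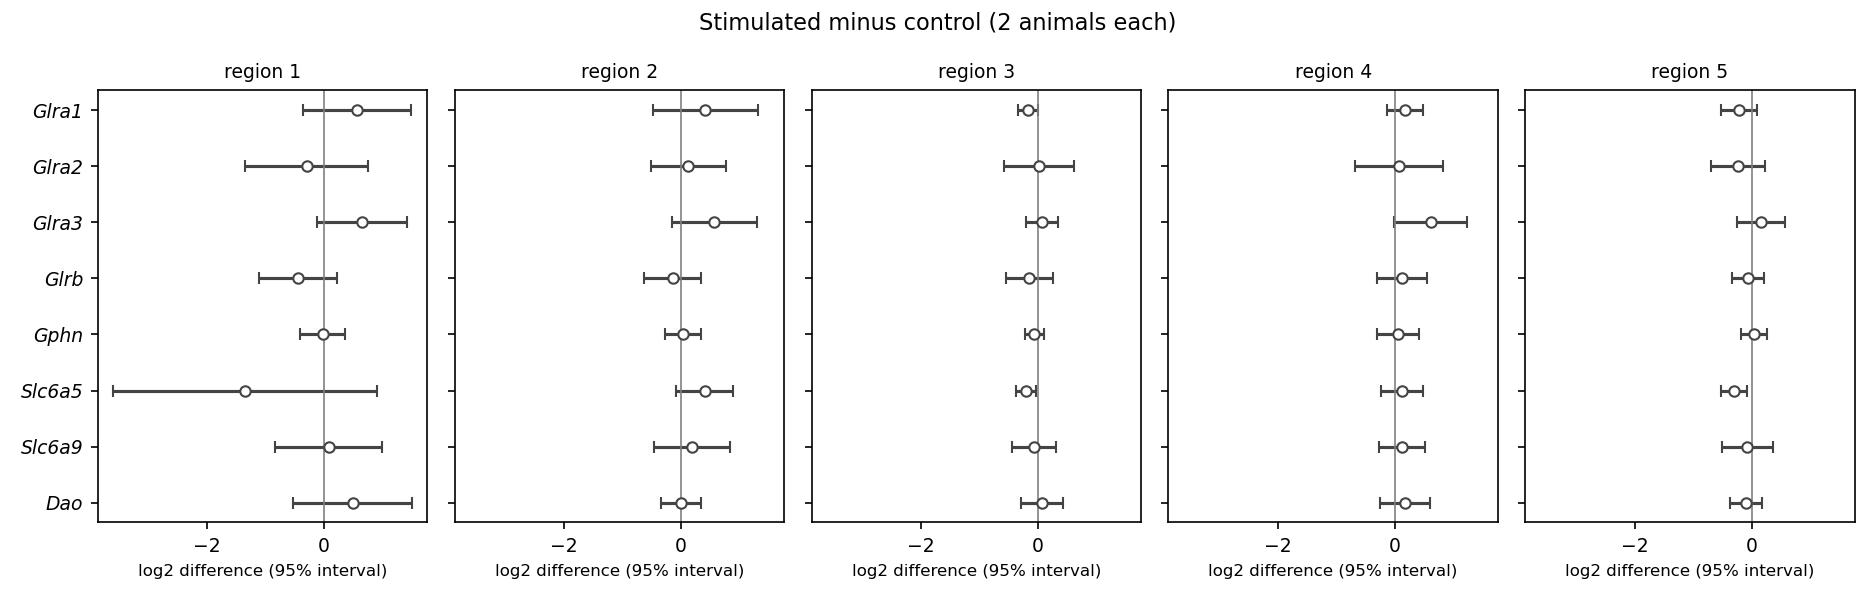
Log2 difference, stimulated minus control, of each of the 8 genes in regions 1 to 5, with 95% intervals from limma in the 4 libraries of each region; no point passed at an adjusted p of 0.05. Intervals are narrowest in region 3, and Dao in region 2 is at 0 because all 4 libraries are at the floor.

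Across the 12 cord libraries the 8 genes did not all vary together, and the pair of Glra3 and Slc6a9 had the lowest correlation, 0.124. These correlations are Pearson's r of log2 FPKM over libraries that share animals and library scaling, and are given as a description. Glra1 and Slc6a5, receptor and transporter of the same synapse, had an r of 0.939, and 0.845 after the region means were removed. Glrb and Gphn, which bind each other, had 0.955 and 0.801, and Glra2 and Dao 0.916 and 0.911. To Snap25, a synaptic protein gene, Slc6a9 had an r of 0.524 and Glra3 of 0.650, and 0.353 and 0.0343 after the region means were removed. Glra1, Glra2, Glrb, Slc6a5, Gphn and Dao had 0.922, 0.963, 0.938, 0.928, 0.890 and 0.857 to Snap25 over the same libraries. After the region means were removed, these values were 0.624, 0.831, 0.929, 0.788, 0.614 and 0.780.

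Over the 13359 genes searched, those with cord means no lower than 1 FPKM, the genes most like each of the 8 over these libraries were Fndc5, Disp2 and Faim2 for Glra1 (r of 0.982, 0.981 and 0.980) and Tcte1, Fam171a2 and Pitpnm1 for Glra2 (0.980, 0.978 and 0.977). For Glra3 they were Gria2, Trank1 and AABR07071697.1 (0.961, 0.950 and 0.940). Gria2 encodes an AMPA receptor subunit. For Glrb they were Tuba4a, Stmn3 and Rab3a (0.994, 0.994 and 0.992), which encode a tubulin, a stathmin and a synaptic vesicle protein, and for Gphn Chrnb2, Ppme1 and Gsk3a (0.988, 0.985 and 0.984). For Slc6a5 they included Fam13a and Pacsin1 (0.967 and 0.958). For Slc6a9 they were Aplp1, Phactr1 and Zfp106 (0.982, 0.965 and 0.955) and for Dao Acsl6, LOC100911750 and Ntm (0.947, 0.944 and 0.944). These lists share no gene.

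The wider set of 28 glycine genes, which holds vesicle loading, gephyrin partners, molybdenum cofactor synthesis, other transporters, glycine cleavage and synthesis, D-amino acids and glycine-binding NMDA receptor subunits, had 26 genes in the table, of which 24 were tested. Between the tissues 6 of the 24 were higher and 17 lower in white matter, beside 25.0% and 47.1% of all genes, and Slc1a4, a carrier of small neutral amino acids, was the exception at 8.02 FPKM against 7.92 FPKM (adjusted p = 0.973, limma).

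Genes of glycine breakdown and supply went in both directions between the tissues. Gldc, the decarboxylase of the glycine cleavage system, was higher in white matter, at 7.53 FPKM against 1.63 in cord (log2 difference 2.19, SE 0.071, adjusted p = 2.13e-15, limma), while its partners Gcsh and Amt were lower. Phgdh, which opens serine synthesis, was at 13.1 against 45.1 FPKM (-1.79, SE 0.0894, adjusted p = 1.26e-12, limma). Srr, which makes D-serine, the substrate of Dao, was higher in white matter, at 10.2 against 5.23 FPKM (0.97, SE 0.0604, adjusted p = 3.8e-11, limma), opposite to Dao. Slc7a10, a carrier of glycine and D-serine, was at 4.50 against 15.9 FPKM (-1.84, SE 0.107, adjusted p = 1.22e-11, limma). Among NMDA subunits Grin1 was higher in white matter, at 41.5 against 20.5 FPKM.

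At the lesion against the cord above it, 7 of the 24 were lower and 1 was higher, beside 12.8% and 6.78% of all genes. The lower genes were Slc32a1, Slc7a10, Nlgn2, Dynll2, Srr, Grin1 and Grin3a, of which Nlgn2 and Dynll2 encode proteins that bind gephyrin. Slc32a1 was at 15.7 against 24.5 FPKM (-0.64, SE 0.129, adjusted p = 0.00231, limma) and Slc7a10 at 12.4 against 19.2 FPKM (-0.63, SE 0.166, adjusted p = 0.0133, limma). The higher gene was Mocs1, which starts molybdenum cofactor synthesis, at 3.45 against 2.34 FPKM (0.56, SE 0.158, adjusted p = 0.0201, limma). None of the 4 glycine cleavage genes or the 5 genes of serine and glycine synthesis passed there. Between the white matter blocks 2 of the 24 were higher in region 1 (Gldc and Grin3b), beside 6.86% of all genes. Between regions 5 and 4, 2 were higher in region 5 (Dynll2 and Mocs2), beside 7.06% of all genes. Both counts are near the share of all genes, so nothing is read from them. Between regions 5 and 3, 0 passed, while over all genes 422 were higher and 235 lower. Stimulation gave 0 of 24 in every region by limma, with 1 at an unadjusted p under 0.05, in region 1, where 5.44% of all genes had such a p.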

How the data were processed

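Total RNA depleted of ribosomal RNA was sequenced from 5 regions of 4 rats, 20 libraries in all. The authors aligned paired reads with TopHat2 2.1.0 to the rat genome Rnor6 and deposited FPKM values from Cufflinks 2.2.1 with every value under 0.1 raised to 0.1 (annotation version not given in the sources used here). Genes of at least 1 FPKM in any library were kept. Log2 FPKM was tested with limma 3.58.1 (R 4.3.3; eBayes with trend, Benjamini-Hochberg over all kept genes, threshold 0.05), the regions in a model of region means over all 20 libraries, and stimulation in the 4 libraries of each region. Differences of the stimulation effect between regions were tested on differences within animals. The scripts were tested on simulated data. All 8 genes are named in each comparison, with the 3 genes most like each by correlation, except for results that are not reported here. Members, gene lists and markers were chosen with earlier results of these data known, and no list was tested as a set. Regions come from the same animals (mean correlation of deviations between regions from -0.03 to 0.59), so the animal was used as a block in an alternative. Other alternatives were pseudocounts, filters, scalings, no trend, 1 model of all libraries for stimulation and leaving out animals. No 2 libraries held identical values. Read depth per library was not analysed here.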

Additional observations from a re-analysis of the deposited data

Results flagged for a closer look

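Among 47 groups of 4 to 10 libraries searched for a library far from the rest, 1 stood out, and chance marks about 1 in 20. Dao in white matter was highest in region 1 of stimulated animal 2, at 0.219 FPKM, where the next of the 8 white matter libraries was at 0.156 FPKM and the lowest at 0.1 FPKM, the floor of the table. The gap to the next library was 0.529 of the whole range. All these values are near the floor, and every region 2 library was at it, so no difference between the white matter blocks is read for Dao.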

How the results depend on the processing

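Between white matter and cord, Glra2 lost its call after quantile normalization and without control animal 1. Between regions 1 and 2, 4 of 8 passed (Dao counted), and 2 with log2(FPKM + 1), 2 without a filter and 2 to 4 without single animals or the library that stood apart. Gphn passed there after quantile normalization and after upper-quartile scaling, at -0.17 under each. Between regions 3 and 4, 4 passed, 7 in the cord libraries alone, 6 with log2(FPKM + 1) or log2(FPKM + 0.5), and 0 to 4 without single animals. Between regions 4 and 5, 0 passed, 1 with either pseudocount (Glra1), 2 with the animal as a replicate block, 3 in the cord libraries alone and 0 to 1 without single animals. Between regions 3 and 5, 1 passed (Glra3), 0 without a filter (adjusted p = 0.055, limma), 2 after upper-quartile scaling (with Gphn) and 0 to 1 without single animals, and after quantile normalization Gphn passed in place of Glra3. Without a filter more genes are tested, and without an animal fewer libraries are fitted; for the other settings the cause was not tested. Over all genes, the numbers higher and lower ranged without single animals from 13 and 13 to 3291 and 383 between regions 1 and 2, from 133 and 390 to 2391 and 2518 between regions 4 and 3, from 5 and 0 to 660 and 437 between regions 5 and 4, and from 36 and 18 to 821 and 416 between regions 5 and 3. The block of animals changed no other call between regions. In the cord libraries alone, 2152 genes were higher and 2635 lower in region 4 than in region 3. Between regions 5 and 4 that fit called 2167 higher and 295 lower, and the block of animals 1776 and 190. Without the library that stood apart, 3043 were higher and 537 lower in region 1 than in region 2.

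For region 1 minus region 2, Glra2 was -0.17 after quantile normalization, -0.0084 after upper-quartile scaling and -0.17 to 0.16 without single animals, and Glra3 -0.50, -0.011 and -0.11 to 0.23. For region 5 minus region 4, Slc6a9 was -0.020 after quantile normalization and Glra3 -0.18 to 0.039 without single animals. For region 5 minus region 3, Slc6a9 was -0.094 after quantile normalization, -0.065 after upper-quartile scaling and -0.0027 to 0.11 without single animals, Glrb -0.11 to 0.061, Gphn -0.063 to 0.0083 and Dao -0.16 to 0.018. Quantile normalization moved the median difference of all genes from -0.18 to -0.04 between the tissues, from 0.06 to -0.05 between regions 1 and 2 and from 0.14 to 0.03 between regions 5 and 4, and upper-quartile scaling moved the last to -0.02. Between regions 5 and 3 the median went from 0.11 to -0.02 and -0.01 under these scalings.

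For stimulation, 0 of the 8 genes passed in each region under every alternative run, and Slc6a5 in region 2 turned to -0.49 after quantile normalization, where the median of all genes went from 0.08 to -0.06. Over all genes and alternatives without single animals, the numbers higher and lower rose to 217 and 11 in region 1, 533 and 15 in region 2, 57 and 83 in region 4 and 122 and 25 in region 5, and with the replicate block to 322 and 121 in region 5. Crossed pairs gave 43 and 75 in region 4. Differences of the 8 genes turned direction 22 times and kept it 134 times without single animals, and 9 and 381 times under the other alternatives, with none past the threshold. The same numbers in both groups did not pair the animals: deviations of same-numbered animals correlated at -0.21, -0.10, -0.11, 0.32 and -0.16 in regions 1 to 5. With those pairs as a replicate block 0 of 8 genes passed, as with the crossed pairs, which were added after seeing the data, as was the fit of cord libraries alone. Where an animal was left out of a stimulation fit, the animal left alone in its group was assumed to vary like the others.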
